A study of Mus musculus with 10 samples.

Results

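Among the lymphatic endothelial cells (LECs) of mouse ear skin, a group of cells carried reads of at least 2 of the genes Ptn, Thbd and Plvap while keeping a capillary-like balance of Lyve1 over Mmrn2. This group held 359 of 1641 LECs, and LECs were 1641 of 3248 wells that passed the limits on quality, out of 3456 sequenced wells. Levels are given in CPM, the reads of a gene scaled to the same total of gene reads in every well or summed sample. Wells had at least 50000 reads outside the spike-in RNA, at least 200 genes and at most 10% mitochondrial reads. A well was called a LEC where Prox1, Flt4 and Mmrn1 together reached 300 CPM and exceeded the sum of Flt1, Emcn and Podxl. The Ptn/Thbd/Plvap LECs are the LECs with at least 2 of the 3 genes at 100 CPM or more, Ptx3 under 100 CPM, Lyve1 not below Mmrn2, Cldn11 under 300 CPM, and 7 cell-cycle genes together under 500 CPM. These values chose the cells, so their levels are described below without a test. Shares of cells that pass the limits are compared between genotypes. Genotype was not a limit of the rule, but Ptn, Thbd and Plvap were chosen with earlier results of these mice known. The p-values of shares that rest on these 3 genes are thus no independent support.

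Each well held 1 cell sorted by surface Podoplanin and CD31 after removal of CD45, CD11b and Ter119 positive and dead cells, and its full-length cDNA was sequenced by Smart-Seq2. The mutant group was 5 mice of the strain Pik3caH1047R;Cdh5-CreERT2, in which an activating PIK3CA mutation is switched on in endothelial cells. These mice had received 4-hydroxytamoxifen on the ears at 3 weeks of age and all mice, controls included, were studied at 5 weeks. Control 1 was an untreated C57BL/6J mouse, and control 2 was a Cre-negative littermate that had received 4-hydroxytamoxifen at 3 weeks, so the 2 controls differed in genotype and treatment. Both sexes were used. Cdh5-CreERT2 acts in blood as well as lymphatic endothelium, so the blood endothelial cells (BECs) of the mutant mice do not stand as an unaltered reference, and the count tables hold no entry for the transgene. Mutants 1 to 4 were sequenced on 1 series of plate numbers, and mutant 5 and both controls on another, so that plate series and genotype overlap largely. Mutants 3 and 5 filled 2 plates each, which were summed per mouse.

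LECs line the vessels that drain fluid and immune cells from tissue. Blind-ended capillaries take up the fluid, and collecting vessels with valves and smooth muscle carry it away. PI3K, the kinase whose catalytic subunit PIK3CA encodes, passes growth factor signals to AKT, and activating PIK3CA mutations are known from vascular malformations. Ptn encodes pleiotrophin, a secreted growth factor that binds heparin. Thbd encodes thrombomodulin, the thrombin receptor that turns thrombin towards activation of protein C. Plvap forms the diaphragms that span caveolae and fenestrae of endothelial cells and is abundant in blood capillaries. Of 3 further genes followed here, Sdc1 encodes the heparan sulphate proteoglycan syndecan-1, Postn the matricellular protein periostin, and Aebp1 a secreted protein that binds collagen. On GRCm38 the 3 gene loci that define the group are chr6 from 36714929 to 36810220 for Ptn, chr2 from 148404466 to 148408188 for Thbd and chr8 from 71497765 to 71511752 for Plvap, each on the minus strand.

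The cells were set beside 3 other classes of each mouse. Capillary-side LECs outside the gate passed every other limit and failed only the one on Ptn, Thbd and Plvap (344 cells, 210 of them mutant). Collecting-side LECs passed the limits on Ptx3, Cldn11 and cell cycle but had more Mmrn2 than Lyve1 (139 cells). The 1490 BECs gave the level of each gene in blood endothelium. Reads were summed per mouse and class, so that n is 7 mice, and the summed Ptn/Thbd/Plvap LECs of a mouse held about 9584040 to 39430400 reads.

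Ptn reached 451 and 405 CPM in the Ptn/Thbd/Plvap LECs of controls 1 and 2, and 703, 711, 726, 554 and 351 CPM in mutants 1 to 5. Capillary-side LECs outside the gate had 120 and 32.9 CPM in the controls and 18.4, 299.9, 170, 183 and 53.7 CPM in the mutants. In every mouse Ptn was thus higher inside the gate, by 2.61 ± 1.37 on the log2 scale (mean ± SD, n = 7). Thbd stood at 497 and 332 CPM in the controls and at 541, 1254, 994, 736 and 1093 CPM in the mutants, and every mutant mouse lay above both controls. Outside the gate Thbd ranged from 21.1 to 369 CPM, and the log2 difference was 2.71 ± 1.65. Plvap was the least separated of the 3, at 853 and 611 CPM in the controls and 805, 715, 576, 618 and 683 CPM in the mutants against 162 to 562 CPM outside the gate, a log2 difference of 1.06 ± 0.63. Plvap was not high by the measure of other endothelium, since collecting-side LECs had 660 to 1337 CPM and BECs 2082 to 3978 CPM.

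Of the 3 genes that the gate did not use, Sdc1 stood at 401 and 334 CPM in the controls and 316, 511, 514, 582 and 435 CPM in the mutants. Outside the gate on the capillary side it had 395 and 232 CPM in the controls and 251, 113, 216, 346 and 160 CPM in the mutants. Sdc1 was therefore higher inside the gate in 7 of 7 mice, though by a small margin in control 1, with a mean log2 difference of 0.92 ± 0.74 (SD). Sdc1 is also abundant in epithelium, and keratinocyte markers, given below, were higher inside the gate in mutants 1, 4 and 5 and lower in the other 4 mice; their part in the Sdc1 values was not tested. Aebp1 stood at 255 and 450 CPM in the controls and 370, 441, 636, 438 and 541 CPM in the mutants, against 132 to 386 CPM outside the gate, a log2 difference of 0.82 ± 0.72. Collecting-side LECs had 368 to 789 CPM of Aebp1, more than the Ptn/Thbd/Plvap LECs in 6 of 7 mice and less in mutant 3. Postn stood at 60.2 and 26.6 CPM in the controls and 201, 97.8, 261, 158 and 232 CPM in the mutants. Outside the gate it had 39.2 and 23.5 CPM in the controls and 3.10, 6.97, 30.5, 2.88 and 4.67 CPM in the mutants. The log2 difference of Postn was 0.61 and 0.17 in the controls and 3.06 to 5.62 in the mutants, so the gap across the gate was wide in mutant mice and narrow in controls. Beside collecting-side LECs, Postn was higher in 4 of 7 mice and lower in control 2, mutant 4 and mutant 5. Postn, Sdc1 and Aebp1 were picked as marks of these cells on results from the same mice, so their difference across the gate carries no test.

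**Figure D1:**
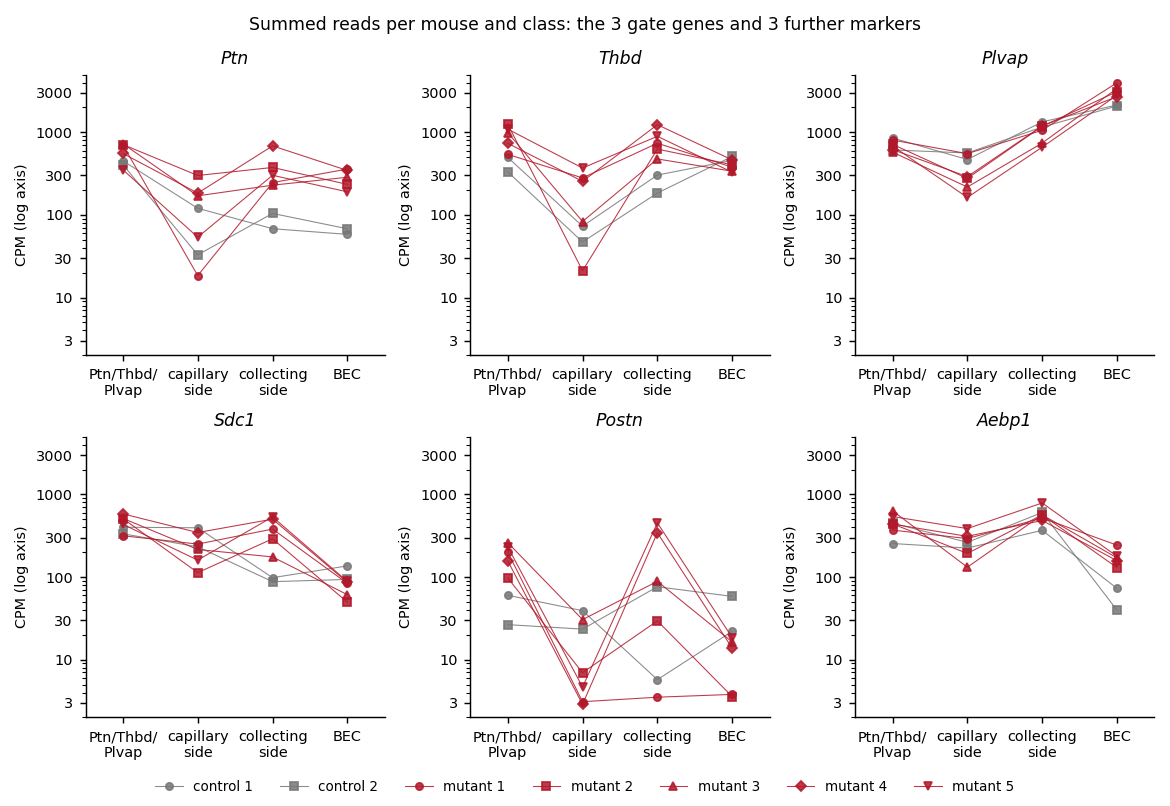
Level in CPM (log axis) of the 3 gate genes and of Sdc1, Postn and Aebp1 in the reads summed per mouse, for Ptn/Thbd/Plvap LECs, capillary-side LECs outside the gate, collecting-side LECs and BECs. Each line is 1 mouse, grey for controls and red for mutants, and Postn separates the first 2 classes in the mutants (97.8 to 261 CPM against 2.88 to 30.5 CPM) far more than in the controls.

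The lymphatic identity of the cells was checked on genes that mark LECs. Prox1, the transcription factor that sets lymphatic identity, stood at 356 to 429 CPM in the Ptn/Thbd/Plvap LECs of the 7 mice and at 3.49 to 24.8 CPM in BECs. Flt4, the receptor of VEGF-C, ranged from 1562 to 2428 CPM, and Mmrn1 from 1966 to 4553 CPM. Lyve1, a hyaluronan receptor of lymphatic capillaries, ranged from 1555 to 3198 CPM and differed from the capillary-side LECs outside the gate by 0.15 ± 0.22 (SD) on the log2 scale. All 4 genes were in the rule and are a description.

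BEC reads were followed with genes that the rule did not use. Vwf was at 0.263 to 1.59% of its level in the BECs of the same mouse, and Aplnr, the apelin receptor, at 0.256 to 1.44%. At the share of Vwf, BEC RNA would bring 8.18 to 40.4 CPM of Plvap, 1.07 to 7.27 CPM of Thbd and 0.370 to 3.41 CPM of Ptn, each below the measured level of the gene in the same cells. Selp, the endothelial P-selectin, gave at most 4.47% and Ly6c1 0.464 to 3.83%. Flt1, a VEGF receptor of blood endothelium that the LEC limit itself keeps low, gave 0.285 to 2.39% and is a description. Cd34 and Gpihbp1 were far higher, at 0.604 to 29.3% and 14.6 to 44.5% of the BEC level, and both were also present in capillary-side LECs outside the gate, at 23.1 to 411 CPM and 130 to 447 CPM. The percent of the BEC level thus differed by gene, so no single share of BEC RNA could be set. At the share of Gpihbp1, BEC RNA would bring 411 to 956 CPM of Plvap. In mutant 5 the percent was 29.3% for Cd34 and 0.663% for Aplnr. BEC RNA would bring 823 CPM of Plvap at the first and 18.6 CPM at the second, beside the measured 683 CPM. How much of Cd34 and Gpihbp1 came from the LECs themselves was not tested. The part of BEC RNA in the Ptn, Thbd and Plvap levels was not tested either. The summed blood endothelial list was at 726 to 1303 CPM in the Ptn/Thbd/Plvap LECs, 816 to 1241 CPM outside the gate and 9465 to 10889 CPM in BECs. Fibroblast markers summed to 902 CPM in control 1 and to 7.30 to 102 CPM in the other 6 mice, and 3 of the 359 cells reached 1000 CPM of that list. Keratinocyte markers moved across the gate in both directions. They summed to 726 CPM inside and 75.0 CPM outside in mutant 1, 587 and 28.0 CPM in mutant 4, and 251 and 21.5 CPM in mutant 5. In control 2 they summed to 55.7 CPM inside and 1189 CPM outside, in mutant 3 to 49.6 and 319 CPM, in mutant 2 to 15.3 and 85.9 CPM, and in control 1 to 311 and 333 CPM. The sums were thus higher inside the gate in 3 of 7 mice and lower in 4, and 9 of the 359 cells and 9 of the 344 outside reached 1000 CPM of the list. At equal depth of 50000 reads, the Ptn/Thbd/Plvap LECs showed 290 ± 149 (SD) more genes per cell than the capillary-side LECs outside the gate. They had more in 7 of 7 mice (exact sign-flip permutation test, two-sided, p = 0.0156, the smallest it can give with 7 mice). The gate rests on gene levels in the same wells, and whether it picks wells with more genes was not tested. Beside all other LECs, the median was higher in both controls and mutant 1 and lower in mutants 2 to 5. It was 3213 against 3441.5 in mutant 2 and 3898 against 4286.5 in mutant 5.

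The name "intermediate" was checked against the genes that set the capillary and collecting sides apart. These were 324 genes that differed at least 2-fold between the 2 sides with the same sign in all 7 mice. On a scale where 0 is the capillary side and 1 the collecting side, the Ptn/Thbd/Plvap LECs had a median of 0.19. Of the 324 genes, 266 lay nearer the capillary side, 246 lay between the 2 sides, 74 lay beyond the capillary side and 4 beyond the collecting side. The cells are thus not midway between capillary and collecting LECs, and lie near the capillary side. Since the rule requires Lyve1 at or above Mmrn2, it sets part of this placing, and the position is a description.

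**Figure D2:**
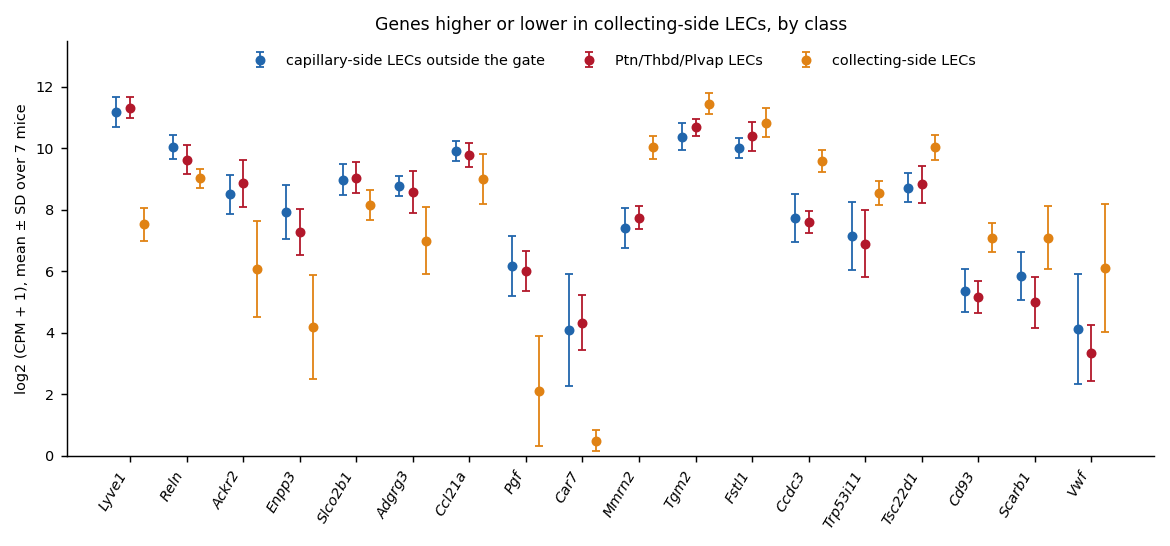
Level, as log2 (CPM + 1), of genes that are higher or lower in collecting-side LECs, in the 3 classes of LEC. Points are means and bars SDs over 7 mice, and for most genes the Ptn/Thbd/Plvap LECs lie by the capillary-side LECs, as the median position of 0.19 over 324 genes gives in 1 number.

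The share of these cells among all LECs did not separate mutant from control mice. It was 25.1% (46 of 183) and 19.4% (34 of 175) in controls 1 and 2. In mutants 1 to 5 it was 20.7% (38 of 184), 16.6% (31 of 187), 25.9% (94 of 363), 19.2% (35 of 182) and 22.1% (81 of 367). The groups overlapped, and the mutant mean of 20.9 ± 3.46% (SD, n = 5) differed from the control mean of 22.3% (n = 2) by -1.40 percentage points (exact permutation test over mice, two-sided, p = 0.762). With 5 mice against 2, the smallest p that this test can give is 0.0952. The plates of 1 mouse differed by more than the genotypes did, since the share was 21.6% and 30.3% on the 2 plates of mutant 3 and 24.6% and 19.3% on those of mutant 5.

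The rest of the LECs was not made up alike in the 2 genotypes. Ptx3-high LECs were 37.5 ± 5.08% (SD) of LECs in mutants and 15.9% in controls, and cycling LECs were 12.6 ± 3.26% against 2.24%, with groups that did not overlap (exact permutation p = 0.0952 each). Both kinds are left out of the Ptn/Thbd/Plvap LECs by the rule but stand in the denominator. Among LECs that passed all limits but the one on Ptn, Thbd and Plvap, a denominator chosen after these values were seen, the gate held 38.3% and 36.2% in the controls. It held 66.7, 43.7, 61.4, 53.0 and 57.0% in mutants 1 to 5. Each mutant mouse was above both controls, with a mean of 56.4 ± 8.73% against 37.3% (difference 19.1 percentage points, exact permutation p = 0.0952, the smallest the design allows). With the limit for the 3 genes at 50 CPM the groups overlapped, since mutant 2 had 52.1% and control 1 55.8%, and the exact permutation p was 0.190. The 2 plates of mutant 3 had 52.6% and 70.1% and those of mutant 5 had 62.7% and 50.7%, all above both controls. Mutant 5, on the same plate series as the controls, had 57.0%, and no other mutant mouse shares that series. Which denominator is used thus decides whether the mutant mice stand apart. The 3 genes were chosen with results of these mice known. The p-values of this share, and of the shares of the 3 genes below, are therefore no independent support.

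The groups of mice did not overlap for cells with all 3 genes and overlapped for cells with exactly 2. Cells with Ptn, Thbd and Plvap all at 100 CPM or more were 5.00% and 9.57% of the capillary-side cells in the controls and 31.6, 21.1, 27.5, 19.7 and 23.9% in the mutants (24.8 ± 4.83% against 7.29%, exact permutation p = 0.0952). Cells with exactly 2 of the genes were 33.3% and 26.6% in the controls and 35.1, 22.5, 34.0, 33.3 and 33.1% in the mutants (31.6 ± 5.13% against 29.96%, exact permutation p = 0.857). Within the Ptn/Thbd/Plvap LECs, cells with all 3 genes were 13.0% and 26.5% of the cells in the controls and 47.4, 48.4, 44.7, 37.1 and 42.0% in the mutants. Each mutant mouse again lay above both controls (43.9 ± 4.53% against 19.8%). Of all 359 cells, 137 (38.2%) had all 3 genes, 66 had Ptn and Thbd only, 77 Ptn and Plvap only, and 79 Thbd and Plvap only. The pair Ptn and Plvap without Thbd made up 43.5% and 29.4% of the control cells and 8.64 to 28.9% of the mutant cells (18.9 ± 7.52% against 36.4%). The shares within the Ptn/Thbd/Plvap LECs rest on the genes that chose these cells and carry no test. Thbd alone was also more frequent among all LECs of the mutants, as given below.

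**Figure D3:**
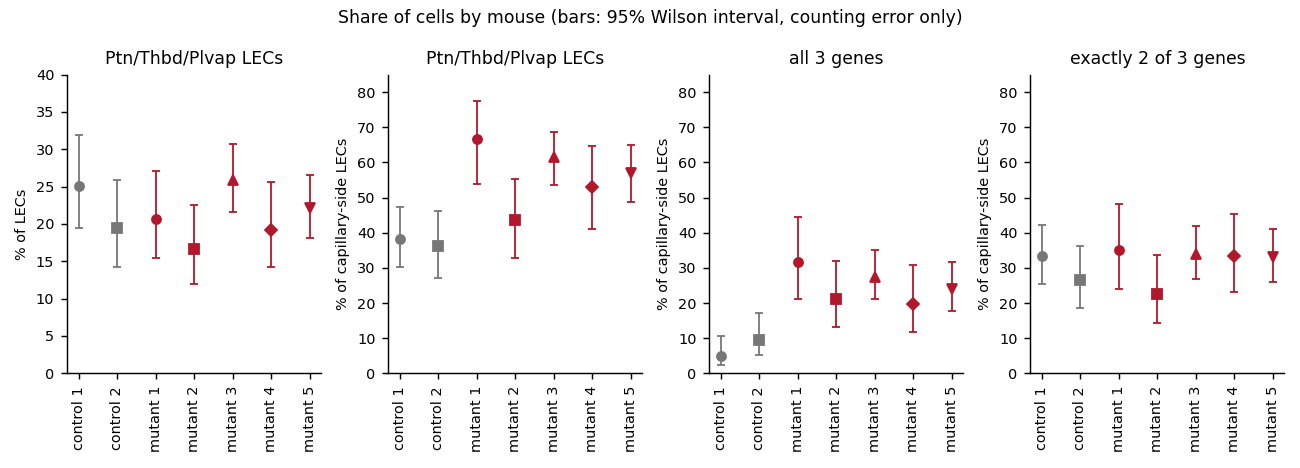
Share of cells by mouse (percent) for Ptn/Thbd/Plvap LECs among all LECs, the same among capillary-side LECs, and the capillary-side cells with all 3 genes or exactly 2. Bars are 95% Wilson intervals, which cover counting error only, and the all-3 cells separate the 5 mutant mice (19.7 to 31.6%) from both controls (5.00 and 9.57%) while the share of all LECs does not.

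A higher share of cells with at least 2 of the 3 genes was seen in the other endothelial cells of the mutant mice too. Over all LECs, with no other limit, it was 38.8% and 38.9% in the controls and 58.3 to 67.4% in the mutants (61.9 ± 3.61% against 38.8%, exact permutation p = 0.0952). In BECs it was 42.8% and 45.2% in the controls and 59.7 to 70.5% in the mutants (65.4 ± 4.02% against 44.0%, exact permutation p = 0.0952). Thbd at 100 CPM or more was found in 31.1% and 30.3% of control LECs and in 62.6 to 76.8% of mutant LECs. Ptn was found in 32.2% and 36.6% of control LECs and 43.3 to 57.2% of mutant LECs, whereas Plvap was found in 69.4% and 65.7% of control LECs and 51.3 to 77.7% of mutant LECs. The groups did not overlap for Thbd and Ptn and did overlap for Plvap.

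The limit of 100 CPM cut through a continuous range. Just inside it were 33 cells whose second-highest gene of the 3 lay at 100 to 125 CPM, and just outside it were 41 cells at 75 to 100 CPM. Mean Sdc1 was 310 CPM just inside and 296 CPM just outside, mean Aebp1 234 and 188 CPM, and mean Postn 6.96 and 9.02 CPM. When each well was thinned to 50000 reads, 334 of the 359 cells were still inside, among 381 cells in all.

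Against capillary-side LECs of the same mouse, few genes outside the rule moved. No gene was called of 15683 tested (edgeR quasi-likelihood test with mouse as a block, Benjamini-Hochberg adjusted p under 0.05, 0% called), 493 had an unadjusted p under 0.05, and DESeq2 called 21, of which 10 were higher and 11 lower. The 20 genes of the rule, the further marker genes and the study's list for its own mixed cluster were kept out of the test. Gnas, which encodes the stimulatory G protein alpha subunit, was at 968 to 1435 CPM inside the gate and 1193 to 1736 CPM outside it. It was lower inside in 7 of 7 mice, with a log2 difference of -0.31 ± 0.06 (SE, edgeR adjusted p = 0.596). Fstl1, a secreted follistatin-like glycoprotein, was at 714 to 1766 CPM against 702 to 1396 CPM. It was higher inside in 7 of 7 mice, at 0.38 ± 0.08 (SE, edgeR adjusted p = 0.596). Gnas and Fstl1 were chosen after their values were seen. Reln, a secreted glycoprotein of lymphatic capillaries, was lower in 6 of 7 mice, by -0.41 ± 0.13 (SE, edgeR adjusted p = 1).

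Over all genes tested the median difference was 0.00 on the log2 scale and 50.5% of genes were positive. Of 21 tested genes of the study's capillary list, 6 were positive, with a median of -0.10. Of 16 glycolysis genes 14 were positive in the fit, with a median of 0.14, but by mouse the medians were -0.03 and 0.00 in the controls and -0.19 in mutant 5, where 4 of 16 were higher. Of 10 tested heparin-binding growth factors and their partners 9 were positive in the fit, with a median of 0.69. By mouse, only 6 to 8 of 13 listed genes outside the rule reached 1 CPM, and 4 to 6 of them were higher. The medians by mouse ran from 0.14 in mutant 5 to 1.21 in mutant 1, with 0.20 and 0.43 in the controls. Of 22 collagen and basement membrane genes 14 were positive, with a median of 0.04. None of these genes was called.

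The study's own list for its mixed cluster of LECs, made on these mutant mice, was higher inside the gate, and this is a description, not independent evidence. It held 64 genes, of which 58 outside the rule were followed by mouse. In the controls, 30 of 51 and 34 of 54 genes with at least 1 CPM were higher, with medians of 0.19 and 0.33 on the log2 (CPM + 1) scale. In mutants 1 to 5, 50 of 55, 51 of 55, 50 of 56, 45 of 54 and 54 of 57 were higher, with medians of 1.25, 1.38, 0.95, 0.90 and 0.94. Every mutant mouse therefore had a larger median than either control. Among genes higher in all 7 mice was Igfbp5, an IGF-binding protein, at 1317 and 1063 CPM inside the gate in the controls and 1071, 1270, 1217, 1033 and 478 CPM in the mutants. Outside the gate Igfbp5 was at 958 and 277 CPM in the controls and 235, 537, 514, 559 and 170 CPM in the mutants. Adamts1, a secreted metalloprotease that cleaves proteoglycans, and Dll1, a Notch ligand, were also higher in all 7 mice, with median log2 differences of 1.81 and 1.21. Against collecting-side LECs the medians of the list by mouse ran from -0.59 to 0.59, so the list did not set the cells apart from that side. The study's capillary list was higher in 11 and 16 of 21 genes in the controls and in 7, 3, 1, 10 and 4 of 21 in mutants 1 to 5, with medians of 0.04 and 0.15 in controls and -0.31 to -0.02 in mutants.

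**Figure D4:**
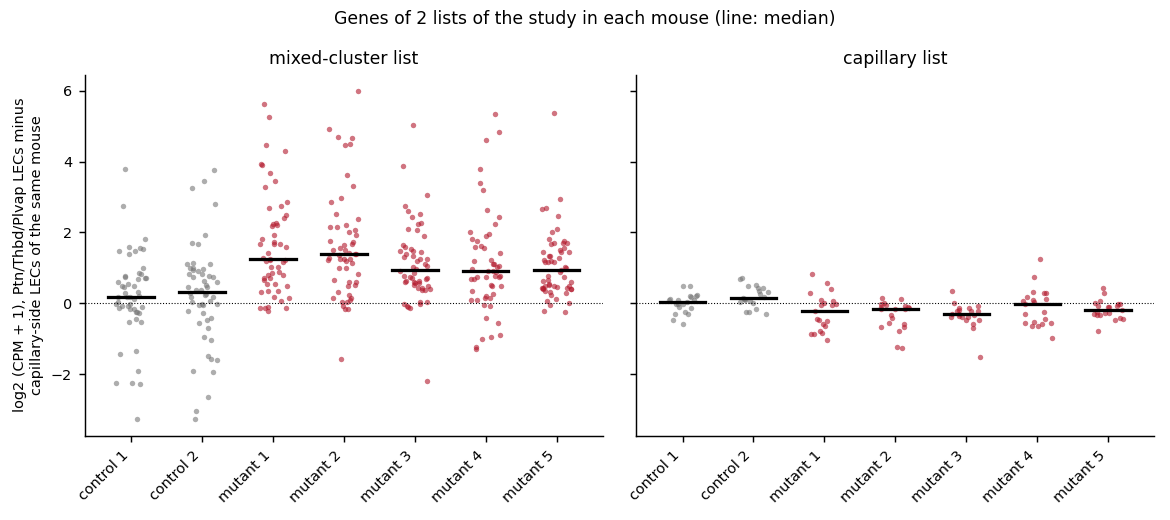
Difference in log2 (CPM + 1) between Ptn/Thbd/Plvap LECs and capillary-side LECs of the same mouse, 1 point per gene, for the study's mixed-cluster list and its capillary list, with a line at the median. In the mixed-cluster list the medians are 0.19 and 0.33 in the controls and 0.90 to 1.38 in the mutants, and in the capillary list they lie between -0.31 and 0.15.

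Against collecting-side LECs of the same mouse, the cells were higher for capillary genes and lower for collecting-vessel genes. The rule split the 2 classes on Lyve1 against Mmrn2, a capillary and a collecting-vessel gene. The study's lists were made on LECs that included cells of these mice. The direction of these lists was thus largely set in advance and is a description. Of 15683 genes tested, 91 were called by edgeR (0.58%), 46 higher (0.293%) and 45 lower (0.287%), and DESeq2 called 941. Of the study's collecting list, 9 of 22 tested genes were lower, none was higher and the median was -1.51, beside 0.15 for all genes. Tgm2, a transglutaminase that cross-links proteins, was at 1281 to 2274 CPM against 2105 to 3890 CPM, a log2 difference of -0.84 ± 0.07 (SE, edgeR adjusted p = 2.54e-05). Ccdc3 was at 138 to 246 CPM against 533 to 1061 CPM (-2.11 ± 0.26 SE, edgeR adjusted p = 0.00117). Serpine2, an inhibitor of serine proteases, was lower by -0.91 ± 0.12 (SE), and Tsc22d1 by -1.31 ± 0.19 (SE). For all 4 genes the levels of the Ptn/Thbd/Plvap LECs overlapped those of capillary-side LECs outside the gate. Vwf, the von Willebrand factor, was at 3.65 to 18.9 CPM against 5.33 to 260 CPM (-3.01 ± 0.55 SE, edgeR adjusted p = 0.0186), and Fstl1 was lower by -0.52 ± 0.08 (SE, edgeR adjusted p = 0.00518). Enpp2, which makes lysophosphatidic acid, Gbp3, a guanylate-binding protein, the lipoprotein receptor Scarb1 and Cd93 were lower as well, by -2.84, -2.84, -2.14 and -1.98.

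On the capillary side of the same comparison, 5 of 21 tested genes of the study's capillary list were higher and none was lower, with a median of 0.41. Ackr2, a scavenging receptor for inflammatory chemokines, was at 171 to 803 CPM against 11.5 to 295 CPM, a log2 difference of 2.46 ± 0.44 (SE, edgeR adjusted p = 0.0135). Enpp3, an ectonucleotidase, rose by 2.88 ± 0.45 (SE, edgeR adjusted p = 0.00698), and the organic anion carrier Slco2b1 by 0.81 ± 0.14 (SE, edgeR adjusted p = 0.0127). Pgf, a ligand of VEGF receptor 1, was at 37.4 to 146 CPM against 0.492 to 61.5 CPM (4.09 ± 0.72 SE, edgeR adjusted p = 0.0135). The upper end of the collecting side for Pgf came from mutant 3, while its other 6 mice had at most 4.14 CPM. Car7, a carbonic anhydrase, Mfap3l, the tyrosine phosphatase Ptpn7, the kinase Ip6k3 and the metalloprotease Adam12 were higher by 5.33, 5.09, 4.68, 4.53 and 4.22. Of the study's list for Ptx3-high capillary LECs, 7 of 45 genes were higher and none was lower, with a median of 0.80. Cells with Ptx3 at 100 CPM or more are left out of both classes. Without control 1 the calls fell to 29, and in mutant mice only to 24.

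Against all other LECs of the same mouse, 140 of 19769 tested genes were called by edgeR (0.708%), 59 higher (0.298%) and 81 lower (0.41%), and DESeq2 called 1034. Genes of cell division were lower. Plk1, Aurkb, Ckap2 and Ube2c, which act in mitosis, fell by 5.93, 5.35, 5.57 and 4.36 on the log2 scale, but the rule leaves out cycling cells and so sets this difference. Rrm2, a ribonucleotide reductase subunit, was also lower, by -3.11 ± 0.51 (SE).

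Among the higher genes were secreted and surface proteins of capillary LECs. Of 21 tested genes of the study's capillary list, 9 were higher and none lower, and the median was 0.55 beside -0.17 over all genes. The rule leaves out cells on the collecting side, and the list was made on LECs that included cells of these mice. This count is thus a description. Comp, cartilage oligomeric matrix protein, was at 396 and 184 CPM in the Ptn/Thbd/Plvap LECs of the controls and 291, 318, 231, 261 and 68.2 CPM in the mutants. Other LECs had 185 and 111 CPM of Comp in the controls and 121, 118, 88.6, 92.8 and 44.4 CPM in the mutants, so it was higher inside the gate in every mouse (1.23 ± 0.13 SE, edgeR adjusted p = 0.00613). Capillary-side LECs outside the gate had 44.7 to 200 CPM of Comp. Slco2b1 was higher by 1.09 ± 0.15 (SE), the EGF-like domain protein Megf6 by 0.97 ± 0.13, the C1 inhibitor Serping1 by 0.89 ± 0.14 and the prothrombinase Fgl2 by 0.87 ± 0.11. Gucy1a1 and Gucy1b1, the 2 subunits of the nitric oxide receptor guanylate cyclase, were each higher by 0.79 ± 0.12 (SE, edgeR adjusted p = 0.0250 and 0.0267). Hey1, a Notch target gene, was higher by 1.20 ± 0.22 (SE), the connexin Gja1 by 0.70 ± 0.10, Reln by 0.67 ± 0.09 and the TGF-beta receptor Tgfbr2 by 0.40 ± 0.06. Called genes of the blood endothelial list went both ways. Cd300lg was higher by 0.78 ± 0.11 (SE, edgeR adjusted p = 0.0138) and Gpihbp1 by 0.62 ± 0.10 (SE, edgeR adjusted p = 0.0249). Both are also on the study's capillary list. Cd34, a sialomucin, was lower by -0.98 ± 0.14 (SE, edgeR adjusted p = 0.0142). Trp53i11 was lower by -0.91 ± 0.15 (SE).

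Several of these genes stood at similar levels in the capillary-side LECs outside the gate. Fgl2 was at 1677 to 3292 CPM inside the gate, 1610 to 3480 CPM outside it on the capillary side and 735 to 2873 CPM in other LECs. Slco2b1 was at 261 to 769 CPM, 327 to 844 CPM and 137 to 609 CPM in the same order. None of the 140 genes was called against the capillary-side LECs alone. Leaving out a mouse moved the number of calls to between 26 (without mutant 1) and 126.

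Between mutant and control mice no gene was called within the Ptn/Thbd/Plvap LECs of 15157 tested (edgeR, 0% called). At an unadjusted p under 0.05 there were 1587 genes, and DESeq2 called 539, 411 higher and 128 lower in mutants. Over all genes tested, the 5 mutant mice lay above both controls in 7.99% and below both in 8.01%. In capillary-side LECs outside the gate edgeR called none of 15658 genes (1151 at an unadjusted p under 0.05, 297 by DESeq2), and the shares were 4.61% and 8.1%.

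Of the 3 further markers, Postn was the one whose mutant and control mice did not overlap. It was at 60.2 and 26.6 CPM in the controls and at 97.8 to 261 CPM in the mutants (log2 fold change 2.11 ± 0.47 SE, edgeR adjusted p = 0.227). The share of cells with Postn at 100 CPM or more was 2.17% and 5.88% in the controls and 13.2, 16.1, 24.5, 17.1 and 22.2% in the mutants (18.6 ± 4.62% against 4.03%, exact permutation p = 0.0952). In capillary-side LECs outside the gate that share was 0 to 6.67% over all mice (1.84 ± 2.11% against 4.68%, exact permutation p = 0.190) and its mutant mean was not above the control mean. In collecting-side LECs it was 0 and 18.8% in the controls and 0 to 18.8% in the mutants. Over all LECs it was 1.64% and 7.43% in the controls and 9.09 to 14.9% in the mutants, again without overlap. At equal depth of 50000 reads, a Postn read was found in 31.5% of the mutant and 18.8% of the control Ptn/Thbd/Plvap LECs. The level in control 1 came mainly from 1 cell at 2710 CPM. Mutant 5, on the plate series of the controls, had 232 CPM and 22.2%. Sdc1 (0.37 ± 0.26 SE, edgeR adjusted p = 0.652) and Aebp1 (0.48 ± 0.27 SE, edgeR adjusted p = 0.550) overlapped between genotypes. Their shares of cells at 100 CPM or more overlapped too (exact permutation p = 0.952 and 0.381). Postn, Sdc1 and Aebp1 were picked with results of the same mice known. Their p-values between genotypes, those of Postn included, are thus no independent support.

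The difference between genotypes in the gap across the gate was tested as an interaction. No gene was called of 16739 (edgeR, 718 at an unadjusted p under 0.05). For Postn the gap was larger in mutants by 4.40 ± 0.85 on the log2 scale (SE). For Reln the signed difference was lower in mutants, by -0.72 ± 0.16 (SE, edgeR unadjusted p = 0.00136, adjusted p = 1). By mouse, the log2 (CPM + 1) difference of Reln across the gate was 0.12 and -0.0037 in the controls and -0.83 to -0.43 in the mutants. Postn was chosen as a marker with results of these mice known, so its value here is a description and no p is given.

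Many genes of the study's capillary list lay below the controls in mutants within the Ptn/Thbd/Plvap LECs. Of 21 tested genes, 9 lay below both controls in every mutant mouse, against a background of 8.01%, and none lay above, with a median log2 fold change of -0.45 beside 0.02 for all genes. In capillary-side LECs outside the gate 2 of 21 lay below, with a median of -0.16. Gpihbp1, which anchors lipoprotein lipase on capillary endothelium, was at 374 and 533 CPM in the controls and 130 to 194 CPM in the mutants (-1.55 ± 0.22 SE, edgeR adjusted p = 0.145). Adgrg3, an adhesion G protein-coupled receptor, was at 642 and 820 CPM in the controls and 247 to 395 CPM in the mutants (-1.27 ± 0.21 SE, edgeR adjusted p = 0.145). Reln was at 1264 and 1048 CPM against 460 to 832 CPM (-0.73 ± 0.24 SE, edgeR adjusted p = 0.368), while outside the gate its log2 fold change was 0.03. Piezo2, a mechanically gated channel, and Selenop, a selenium carrier, lay below both controls in all 5 mutants as well, and Selenop had a log2 fold change of -0.76. None of these passed the adjusted threshold. The study made its cluster lists on LECs that included cells of these mice. The capillary list is therefore not independent evidence of the direction.

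Of the mixed-cluster list, more genes lay above the controls than below. Of 57 tested genes outside the rule, 16 lay above both controls in every mutant mouse, against a background of 7.99%, and none lay below, with a median of 0.90. Outside the gate 2 of 55 lay above, with a median of 0.11. This list was chosen by the study in these mutant mice and is not independent evidence of the direction.

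Glycolysis genes had positive medians in mutants on both sides of the gate. Of 16 genes, 10 lay above both controls in every mutant mouse in the Ptn/Thbd/Plvap LECs and 5 did so outside the gate, against 7.99% and 4.61% of all genes, with medians of 0.78 and 0.57. Pkm, a pyruvate kinase, was at 284 and 227 CPM in the controls and 449 to 746 CPM in the mutants (1.09 ± 0.23 SE, edgeR adjusted p = 0.207), and Ldha, lactate dehydrogenase, differed by 0.78 and Gapdh by 1.03. Immediate-early genes, which respond fast to stimulation and to tissue dissociation, went the other way, with 6 of 16 below both controls in every mutant mouse and a median of -1.02, and 4 of 16 outside the gate, against 8.01% and 8.1% of all genes. Egr1 was at 387 and 163 CPM in the controls and 16.4 to 78.6 CPM in the mutants (-2.90 ± 0.54 SE, edgeR adjusted p = 0.183). Cd34 was at 41.1 and 8.96 CPM in the controls and 166, 238, 239, 314 and 387 CPM in the mutants (3.40 ± 0.62 SE, edgeR adjusted p = 0.181), and outside the gate it differed by 2.43 in the same direction.

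Genes of the extracellular matrix lay on both sides of the controls, and over all genes 7.99% lay above and 8.01% below. Of 23 collagen and basement membrane genes, 5 lay above both controls in every mutant mouse and 5 below, and of 28 matricellular and elastic fibre genes, 5 lay above and 2 below. Among the higher ones were Sparc, a collagen-binding matricellular protein (1.42), Fbln2, a fibulin (1.24), Eln, tropoelastin (0.94), and Col4a1, a basement membrane collagen (0.72). Of 18 matrix proteases, 4 lay above (Adam12, Adam15, Adamts5 and Mmp14) and 1 below. The lower counts of matricellular genes and proteases are near the share over all genes. Col2a1, a collagen of cartilage, stood at 211 CPM in control 1 and at most at 1.08 CPM in every other mouse, and fibroblast markers summed to 902 CPM in control 1. The part of these reads in the collagen values was not tested. Without control 2, edgeR called 6 genes (Chil1, Penk, Col9a2, Tnfrsf11b, Col2a1 and Col8a1), all lower in mutants than in control 1. In that fit control 1 is the only control, so the spread comes from the mutant mice alone and control 1 is assumed to vary like them.

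**Figure D5:**
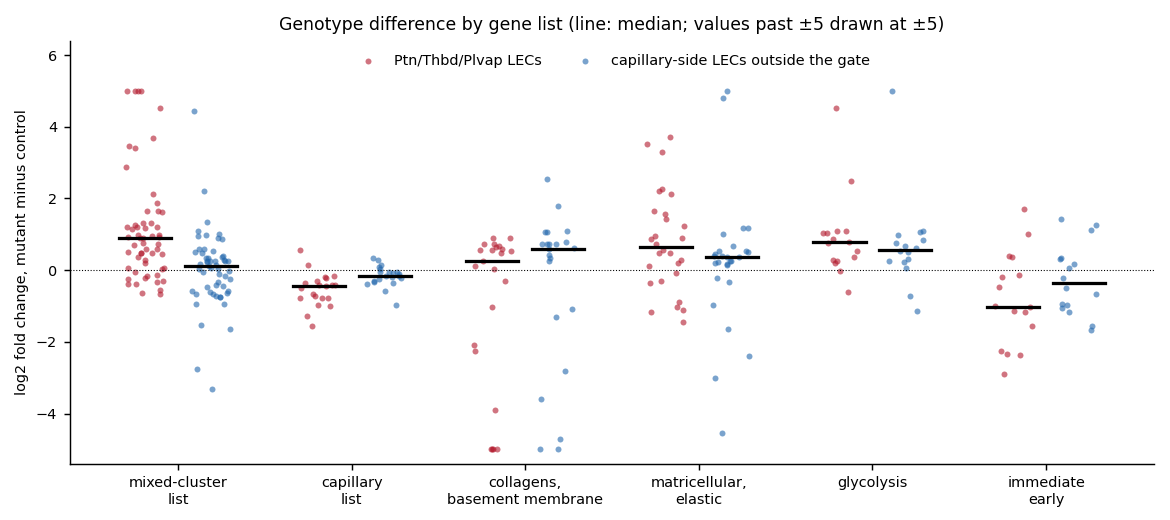
Log2 fold change between mutant and control mice by gene list, 1 point per gene and a line at the median, in Ptn/Thbd/Plvap LECs (red) and capillary-side LECs outside the gate (blue). Values past ±5 are drawn at ±5 (12 genes), and the capillary list is lower (median -0.45) and the mixed-cluster list higher (median 0.90) in the Ptn/Thbd/Plvap LECs.

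The p-values between genotypes measure the spread between mice of 2 small groups. Those between classes of cells measure the spread of differences within the same mice. Since genotype and plate series overlap largely, the genotype values hold for these plates and cannot be told apart from the series, except for mutant 5. Intervals and shares cover counting error of wells and reads only.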

How the data were processed

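Single-cell Smart-Seq2 libraries of sorted mouse ear skin endothelium were deposited as a table of raw read counts per gene and well, which per the labels and the methods of the study the authors made by aligning reads with TopHat2 2.1.1 to GRCm38 together with the transgene sequence, removing duplicates with SAMtools 0.1.18 and assigning reads to genes with featureCounts; the submitters' notes also list R 3.5.1 and Seurat 3.1.1. The deposited counts were used as they stood. Gene names came from GENCODE for 46005 of 46517 identifiers, and 92 spike-ins were left out. Plates held 99969650 to 151812175 reads, and median reads per Ptn/Thbd/Plvap LEC were 247755.5 to 438921 by mouse. 1 further control of the study was not analysed here, and no doublet caller was run.

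Wells passed the limits given in the report. Counts were summed per mouse and class, genes with few reads were removed with filterByExpr, and sums were tested with edgeR 4.0.16 in R 4.3.3 (TMM, quasi-likelihood, mouse as a block within mouse, Benjamini-Hochberg adjusted p under 0.05). DESeq2 1.42.0 was an alternative. Shares were compared by exact permutation over 21 splits of 7 mice, two-sided. Log2 differences by mouse used CPM plus 1. The genes of the rule, the further markers and the mixed-cluster list were not tested across the gate within mice. The fits between genotypes and the interaction left out only the genes of the rule. Scripts were tested on simulated data. Genes named by rule were the called genes with the largest changes, the same sign in every mouse and a mean log2 CPM of at least 4. They were up to 12 per direction against other LECs and 6 elsewhere, and up to 4 per list at a mean of at least 3. Other genes named in the report, such as Tgm2, Ackr2, Enpp3, Pkm and Egr1, came from no fixed rule, and several were not called. The cells, lists and markers were chosen with earlier results of these data known.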

Additional observations from a re-analysis of the deposited data

Results flagged for a closer look

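Among 77 groups of samples examined for 1 sample far from the others, 3 were picked out, and chance alone picks about 1 in 20 groups. The share of capillary-side cells with exactly 2 of the 3 genes was 22.5% in mutant 2 and 33.1 to 35.1% in the other mutant mice. Comp differed between Ptn/Thbd/Plvap LECs and other LECs by 0.61 on the log2 scale in mutant 5 and by 1.26 to 1.48 in the other mutant mice. Mfap3l differed between Ptn/Thbd/Plvap LECs and collecting-side LECs by 1.75 in mutant 3 and by 4.07 to 4.25 in the other mutant mice.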

How the results depend on the processing

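The share of LECs moved to a difference of 4.95 points when all 3 genes were required. Leaving out 1 mouse at a time, the difference in the share of LECs ran from -4.25 to 1.46 points and that of capillary-side cells from 16.5 to 22.3. With the limit at 50 CPM the capillary-side difference was 20.8 points, but the groups overlapped (exact permutation p = 0.190). Genes called against other LECs numbered 1034 with DESeq2, 33 with no replicate block, 68 in cells with Flt1 under 10 CPM, 405 with all 3 genes required and 26 to 126 without 1 mouse (26, 49, 41, 53 and 47 without mutants 1 to 5, 88 without control 2). Against capillary-side LECs they numbered 21 with DESeq2, 1 with all 3 genes required and 0 to 0 without 1 mouse. Against collecting-side LECs they numbered 941 with DESeq2, 46 with no replicate block, 24 in mutant mice only, 40 with Flt1 under 10 CPM, 41 with all 3 genes and 29 to 71 without 1 mouse (29 without control 1, 54 without control 2, and 50, 47, 52 and 42 without mutants 2 to 5). Between genotypes they numbered 539 with DESeq2 in the Ptn/Thbd/Plvap LECs, 0 with the replicate block and 0 to 6 without 1 mouse. In capillary-side LECs they numbered 297 with DESeq2, 5 with no filter on low counts, 9 with the replicate block, 2 after thinning and 0 to 0 without 1 mouse. Correlations between same-numbered mice were 0.018 and -0.001 over 6105 genes. Each group was centred on its own mean, so the 2 controls mirror each other. These values therefore cannot show whether the replicate numbers pair mice. Of the genes named by rule, none reversed in 615 and 180 refits, and 230 and 68 fell below the threshold. The genes named for the largest changes were chosen with the same sign in every mouse, so reversals were unlikely in advance. A limit of 30 CPM on Flt1, Emcn and Podxl together was not run, since too few cells remained. The cause of these changes was not tested.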

Other observations

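When Ptn, Thbd and Plvap were all required, 1 gene was called against capillary-side LECs. Tgm2, a transglutaminase of the study's collecting list, was higher by 0.55 on the log2 scale (edgeR adjusted p = 0.0179), and it stood at 0.30 ± 0.07 (SE, edgeR adjusted p = 0.952) under the rule with 2 of the 3 genes. Angpt2, a ligand of the receptor Tie2, was lower in 6 of 7 mice under the rule, by -1.60 ± 0.41 (SE, edgeR adjusted p = 1), with an adjusted p of 0.0318 in DESeq2. The requirement of all 3 genes was chosen after the data were seen.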
